A study of Mus musculus with 23 samples.

Results

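Laminins, the other core glycoproteins of basement membranes, and the integrins that bind them were described across tumors of the mouse glioma lines GL261 and CT2A. The set was chosen by gene name and holds 32 genes of 35576 with an identifier in the files: 10 laminin chains, 2 nidogens, the 2 heparan sulfate proteoglycans perlecan (Hspg2) and agrin (Agrn), 11 integrin alpha chains and 7 integrin beta chains. All 32 were matched by symbol. Both lines arose in mouse brains treated with a chemical carcinogen, carry a luciferase gene, and were grown in the brains of young adult female albino C57BL/6 mice with an intact immune system. RNA from whole (bulk) tumors was sequenced for 4 GL261-luc2 and 4 CT2A-luc tumors. In a separate cohort, grown from other sublines of the same lines, tumor cells were pulled from dissociated tumors with magnetic beads. That cohort holds 4 GL261 and 3 CT2A tumors started from adherent cultures, called sorted tumor cells here, and 3 GL261 and 5 CT2A tumors started from neurospheres, which are floating spheres grown in culture. Each line is a single cell line, so a difference between lines is a difference between 1 model and 1 other. For the bulk tumors fewer CT2A-luc than GL261-luc2 cells were implanted, which cannot be told apart from the line there.

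Laminins are cross-shaped trimers of an alpha, a beta and a gamma chain. They polymerise into a sheet on cell surfaces, and nidogens, perlecan and agrin tie that sheet to a network of type IV collagen. Integrins are alpha-beta pairs in the plasma membrane that hold the cell to this sheet. To bind laminin, alpha 3, alpha 6 and alpha 7 pair with beta 1, and alpha 6 also pairs with beta 4. Alpha 1, 2, 10 and 11 pair with beta 1 to bind collagens. Alpha 5, alpha 8 and alpha V bind proteins such as fibronectin and vitronectin through the short RGD motif. In the brain, basement membranes lie around blood vessels and under the pia, and glioma cells meet them there.

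The titles of the 5 CT2A neurosphere libraries name GL261, whereas their cell line entry and description name CT2A, and they were grouped by the latter. Nid1, given below, lay at 203 to 340 normalized read counts scaled to equal library size (CPM) in these 5 libraries, at 260 to 429 in sorted CT2A cells and at 7.64 to 16.3 in sorted GL261 cells. Nid1 is itself a member compared below, so these values are no independent check of the grouping. The comparison of neurosphere-derived tumors rests wholly on these libraries, and the comparisons of bulk tumors and of sorted tumor cells do not use them. Libraries held 34622622 to 42608400 estimated reads in GL261 bulk tumors and 7395846 to 15263587 in the other 5 groups. In 2 groups a single library stood apart from its replicates (chi-square per degree of freedom over genes): sorted GL261 library 81 (67.3 to 72.7 against 5.35 to 18.0 among the others) and CT2A neurosphere library 59 (56.2 to 93.3 against 9.52 to 38.4). The GL261 bulk libraries differed among themselves, from 45.1 between 414 and 417 to 678 between 405 and 412. Bead-sorted fractions still held reads of other cells. The summed level of 12 macrophage and microglia markers, all 12 with reads in every library, was 4550 to 7340 CPM in GL261 neurosphere-derived tumors, 202 to 1130 in sorted GL261 cells, 779 to 1450 in sorted CT2A cells and 539 to 2360 in CT2A neurosphere-derived tumors. In whole tumors a lower value can come from fewer cells of a type or from less RNA per cell, and the data cannot separate them.

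Per transcript length, integrin beta 1, the shared partner of most alpha chains, had the highest level of the 32 genes in every group. Its median was 225 length-scaled units (TPM) in GL261 bulk tumors, 378 in sorted GL261 cells, 363 in GL261 neurosphere-derived tumors, 371 in CT2A bulk tumors, 556 in sorted CT2A cells and 510 in CT2A neurosphere-derived tumors, and in each group its range did not overlap that of the next gene. The next gene in all 3 CT2A groups was laminin beta 1 (Lamb1), with medians of 207, 362 and 384 TPM in bulk, sorted and neurosphere-derived tumors. In GL261 the next gene was Itgav in bulk tumors (81.9 TPM), Hspg2 in sorted cells (105 TPM) and Itgb5 in neurosphere-derived tumors (116 TPM). In GL261 bulk tumors the ranges of Itgav, Itga6, Agrn, Itgb5, Lamb1 and Hspg2 each overlapped that of the next gene in the order. Itgav and Itga6 changed places between libraries, with 87.2, 52, 99.6 and 76.5 TPM of Itgav against 75.7, 54.3, 97.5 and 78.5 TPM of Itga6, whereas Itgav was above Lamb1 and above Hspg2 in each of the 4 libraries. A median of at least 1 TPM was reached by 27 members in GL261 bulk tumors, 28 in CT2A bulk tumors, 24 in sorted GL261 cells, 25 in sorted CT2A cells, 24 in GL261 and 25 in CT2A neurosphere-derived tumors.

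**Figure D1:**
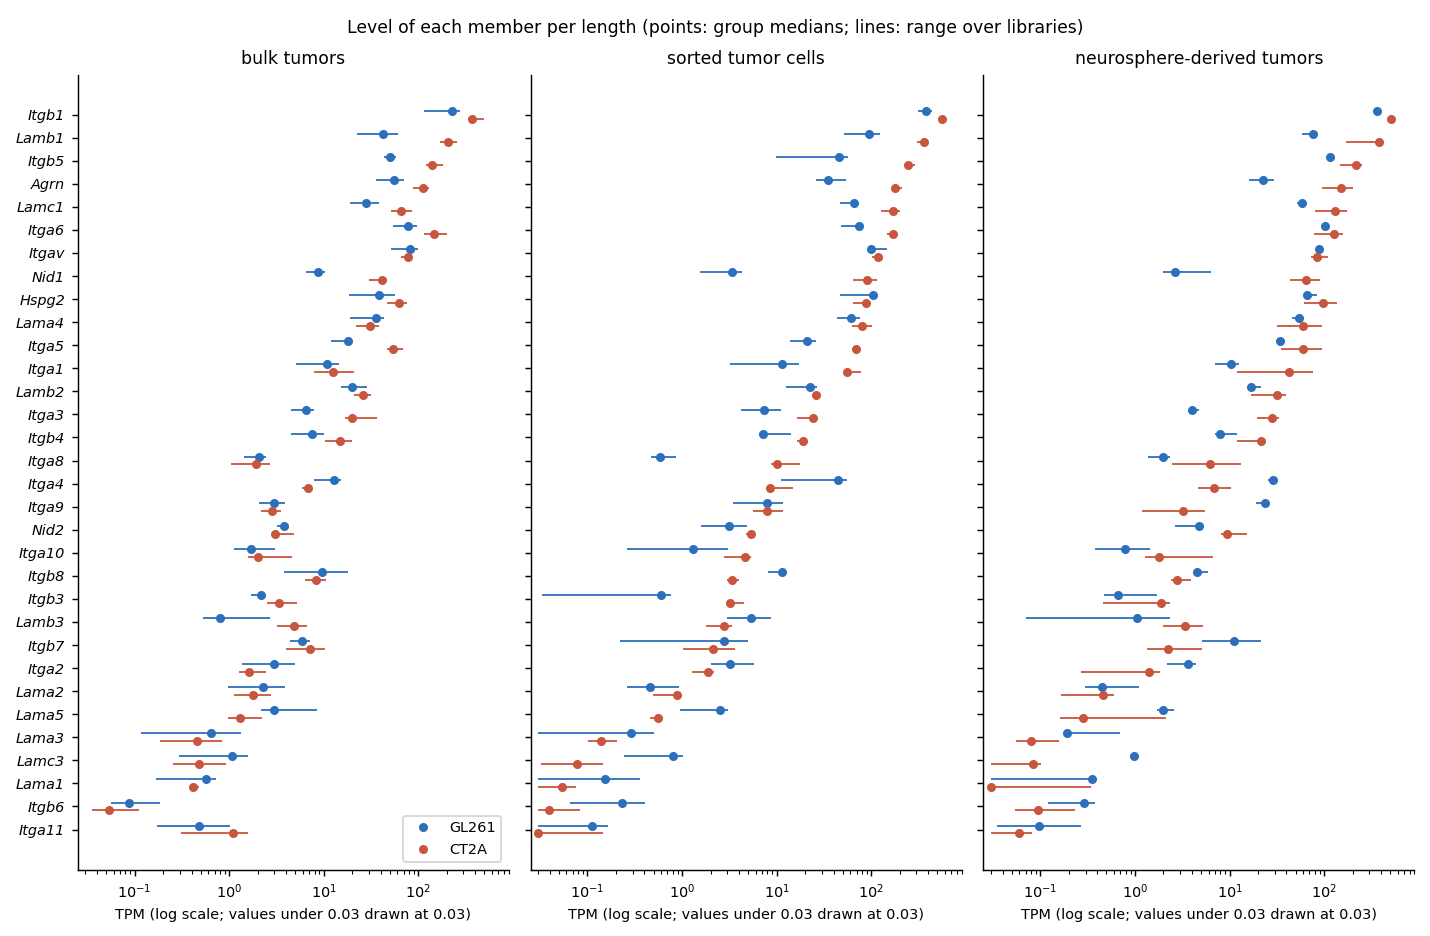
Level of each of the 32 members in TPM (log axis) for GL261 (blue) and CT2A (red) in bulk tumors, sorted tumor cells and neurosphere-derived tumors. Points are group medians and lines the range over libraries. Itgb1 lies at the top in all 6 groups, and Lamb1, Itgb5, Agrn and Lamc1 follow it in sorted CT2A cells.

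The first question was which members differed between the lines. CT2A bulk tumors had higher levels of 9 and lower levels of 2 of the 31 members tested, at an adjusted p under 0.05. Over all 16434 genes tested, 11.4% were called higher and 11.9% lower, 23.4% in all, against 35.5% of the members. In sorted tumor cells 14 of 29 members were higher and 5 lower, or 65.5%, where 24% of all genes were called higher, 26.8% lower and 50.8% in either direction. In neurosphere-derived tumors 15 of 29 were higher and 9 lower, or 82.8%, against 30% higher, 29.6% lower and 59.6% in all. The median log2 difference of the members was 0.04 in bulk, 0.97 in sorted and 0.51 in neurosphere-derived tumors, against -0.05, -0.01 and 0.03 over all genes.

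Across the 3 comparisons, 9 members were called higher in CT2A each time: Lamb1, Lamb3, Lamc1, Nid1, Agrn, Itga3, Itga5, Itgb4 and Itgb5. Of these, Lamb3 changed sign in sorted cells (-1.10) when an offset for transcript length was used. Lama5 and Itga4 were called lower each time. Nid2, Itga1, Itga8 and Itga10 were higher, and Lamc3, Itga2 and Itgb8 lower, in sorted and neurosphere-derived tumors without a call in bulk. The neurosphere call of Itga1 was lost without GL261 library 89 (adjusted p = 0.051). Itgb3 was called in sorted cells alone (in bulk also by DESeq2 and with RSEM counts, and in neurosphere-derived tumors without GL261 library 91 or CT2A library 59), and Lama3, Lamb2, Itga6, Itga9, Itgb1 and Itgb7 in neurosphere-derived tumors alone, which is a count of calls and no test that the differences were unequal. Lama1, Lama2, Lama4, Hspg2, Itga11, Itgav and Itgb6 were called in none, of which Itgb6 was too low to test in any of the 3 and Lama1 and Itga11 in all but bulk tumors. No member was higher in 1 comparison and lower in another. Such patterns over the 3 comparisons were not counted for all genes. The counts therefore describe the members and have no background beside them.

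**Figure D2:**
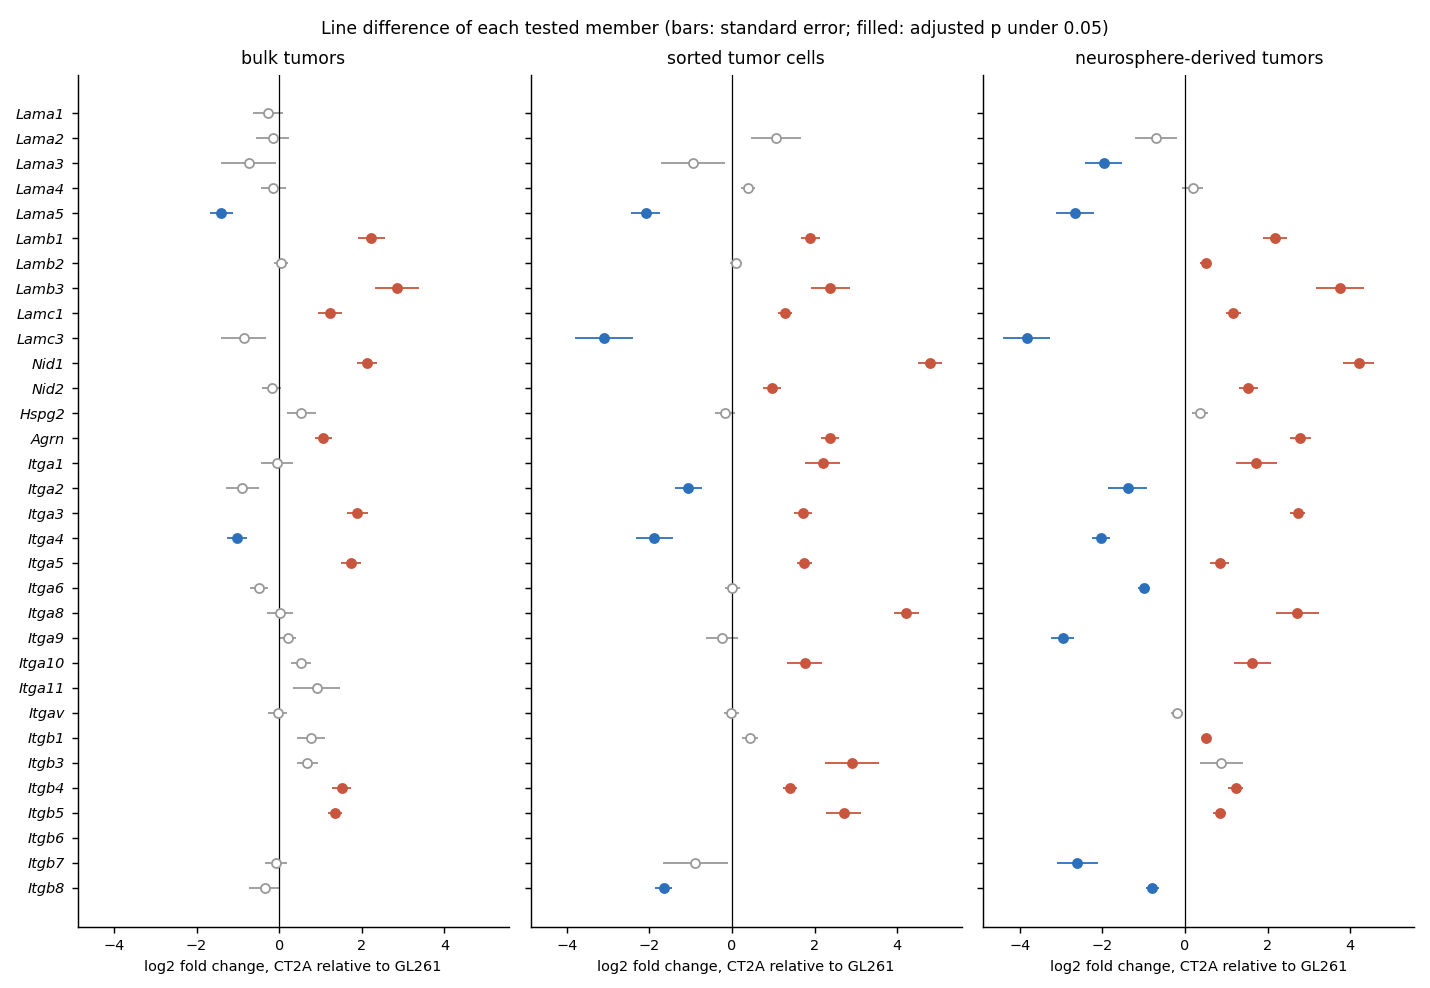
Log2 fold change of CT2A relative to GL261 for each tested member in the 3 comparisons. Points are estimates, bars standard errors, and filled points passed an adjusted p of 0.05 (red higher, blue lower in CT2A). Nid1 reaches 4.79 in sorted cells and 4.21 in neurosphere-derived tumors, and Lama5 and Itga4 lie left of 0 in all 3.

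Laminin beta 1 and gamma 1, the chains that most laminins outside epithelia share, were both higher in CT2A. Lamb1 lies at chr12:31265234-31329644 (GRCm38). It measured 79.1, 88, 177 and 177 CPM in the 4 GL261 bulk tumors against 700, 760, 543 and 524 in the 4 CT2A bulk tumors. Sorted GL261 cells gave 225, 343, 315 and 452 CPM and sorted CT2A cells 1140, 1280 and 1290. Neurosphere-derived GL261 tumors gave 242, 296 and 310 CPM against 1750, 1400, 734, 969 and 1580 in CT2A. In each comparison every CT2A library lay above every GL261 library, and the log2 difference was 2.23 ± 0.33 (SE) in bulk (adjusted p = 0.0024), 1.90 ± 0.22 in sorted (adjusted p = 0.0002) and 2.18 ± 0.29 in neurosphere-derived tumors (adjusted p = 0.00012). Lamc1 (chr1:153218922-153332786) ranged from 77 to 158 CPM in GL261 and from 223 to 367 in CT2A bulk tumors, a log2 difference of 1.24 ± 0.29. Its adjusted p in bulk was 0.018, and it rose to as much as 0.062 when single bulk libraries (GL261 414 or 417, CT2A 39 or 40) were left out. In sorted cells Lamc1 was 1.29 ± 0.16 higher and in neurosphere-derived tumors 1.17 ± 0.19 higher on the log2 scale.

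The alpha chains, which carry the integrin-binding end of a laminin, did not follow. Lama4, the alpha chain of vessel and mesenchymal laminins, was the alpha chain with the most reads: 61.1 to 140 CPM in GL261 and 74.7 to 131 in CT2A bulk tumors, and 204 to 290 against 249 to 361 in sorted cells. The lines overlapped in all 3 comparisons, and the log2 difference was -0.14 ± 0.30, 0.39 ± 0.18 and 0.18 ± 0.25. Lama5 (chr2:180176373-180225859), the alpha chain of laminins in mature vessel and epithelial basement membranes, was lower in CT2A. It measured 28.3, 17.9, 21.1 and 14.3 CPM in GL261 bulk tumors and 6.43, 6.47, 9.12 and 10.5 in CT2A bulk tumors. Sorted GL261 cells had 8.89, 19.6, 22.6 and 17.8 CPM and sorted CT2A cells 4.26, 3.33 and 4.46. In neurosphere-derived tumors GL261 had 14.3, 15.5 and 19.1 CPM and CT2A 2.53, 5.72, 1.41, 1.75 and 1.17. All CT2A libraries lay below all GL261 libraries of the same comparison, with log2 differences of -1.4 ± 0.28 (adjusted p = 0.0091), -2.09 ± 0.36 (adjusted p = 0.0015) and -2.66 ± 0.45 (adjusted p = 0.00059). With an offset for transcript length its adjusted p was 0.059 in bulk and 0.10 in neurosphere-derived tumors. Endothelial markers, of which all 10 had reads in every library, summed to 406 to 475 CPM in GL261 and 57.0 to 161 in CT2A neurosphere-derived tumors, to 146 to 699 against 112 to 177 in sorted cells and to 226 to 289 against 191 to 275 in bulk, with 8, 6 and 1 of the 10 called lower in CT2A. Their part in the Lama5 difference was not tested.

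Lama1 and Lama2, chains of the pial and of the glial and muscle laminins, were not called in any of the 3. Lama2 spanned 3.75 to 15.1 CPM in GL261 and 5.04 to 11.7 in CT2A bulk tumors. Lama3, the alpha chain of the epithelial laminin that holds hemidesmosomes, rested on 12 to 28 reads per library in GL261 and 4 to 9 in CT2A neurosphere-derived tumors, where it was -1.97 ± 0.45 lower (adjusted p = 0.0036). Lamc3, a gamma chain, rested on 31, 30 and 29 reads in GL261 and 0, 4, 5, 4 and 1 in CT2A neurosphere-derived tumors. In sorted cells it had 8, 25, 26 and 40 reads in GL261 and 1, 2 and 5 in CT2A. The lines did not overlap in either, at counts this low, with log2 differences of -3.83 ± 0.57 and -3.09 ± 0.70. Lamb2, a beta chain of vascular and synaptic laminins, was 0.50 ± 0.13 higher in CT2A neurosphere-derived tumors, and its differences of 0.04 ± 0.17 and 0.10 ± 0.14 in bulk and sorted tumors did not pass the test.

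Nid1 (chr13:13437551-13512269), the linker between laminin and type IV collagen, had the largest log2 difference of the members in sorted and in neurosphere-derived tumors. Its levels were 37.4, 22.5, 34.2 and 27.3 CPM in GL261 bulk tumors and 156, 161, 130 and 104 in CT2A bulk tumors. Sorted GL261 cells held 7.64, 12.1, 16.3 and 14.3 CPM and sorted CT2A cells 260, 349 and 429. Neurosphere-derived tumors held 11.7, 8.09 and 24.9 CPM in GL261 and 272, 340, 203, 290 and 281 in CT2A. Every CT2A library was above every GL261 library of its sample type, by 2.12 ± 0.25 in bulk (adjusted p = 0.00097), 4.79 ± 0.29 in sorted (adjusted p = 6.9e-06) and 4.21 ± 0.38 in neurosphere-derived tumors (adjusted p = 1.1e-05). Among markers of other cells, the fibroblast and leptomeninges sum was higher in CT2A in all 3 comparisons. The pericyte and smooth muscle sum was higher in bulk alone. The summed level of 8 fibroblast and leptomeninges markers was 514 to 1640 CPM in CT2A against 181 to 309 in GL261 bulk tumors, 698 to 1320 against 247 to 299 in sorted cells and 586 to 1050 against 165 to 419 in neurosphere-derived tumors. In the 3 comparisons 8, 7 and 7 of these markers were tested, with 4 called higher each time and 2, 1 and 1 lower. The summed level of 10 pericyte and smooth muscle markers was 246 to 307 CPM in CT2A and 120 to 170 in GL261 bulk tumors, 346 to 415 against 362 to 505 in sorted cells and 128 to 380 against 372 to 454 in neurosphere-derived tumors, where Cnn1 was at 0 in CT2A. Of these markers 10, 7 and 8 were tested, with 4, 1 and 1 called higher and 1, 2 and 6 lower. Their part in the differences of Nid1, Lamb1, Lamc1, Col4a1 and Postn was not tested. Nid2, the other nidogen, held 6.27 to 9.32 CPM in sorted GL261 and 13.8 to 16.8 in sorted CT2A cells, a difference of 0.97 ± 0.21, which an offset for transcript length took to an adjusted p of 0.10. In neurosphere-derived tumors it held 9.14, 7.38 and 14.6 CPM in GL261 against 25.6, 32.1, 34.6, 29.4 and 28.7 in CT2A, all above GL261, a difference of 1.53 ± 0.24.

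Agrin (chr4:156165290-156197488), which binds laminin and alpha-dystroglycan and is known from the neuromuscular junction, was higher in CT2A, and perlecan was not called. Agrn measured 109, 181, 204 and 162 CPM in GL261 bulk and 386, 414, 318 and 290 in CT2A bulk tumors. In sorted cells it was 86.9, 108, 111 and 164 CPM against 571, 568 and 679. In neurosphere-derived tumors it was 62.7, 85.9 and 95.1 CPM against 619, 667, 381, 459 and 699. No CT2A library fell within the GL261 range, and the log2 difference was 1.07 ± 0.20, 2.38 ± 0.21 and 2.79 ± 0.25 (adjusted p = 0.0072, 4.8e-05 and 9.9e-06). Hspg2 spanned 477 to 887 CPM in sorted GL261 and 617 to 740 in sorted CT2A cells, a difference of -0.17 ± 0.23. Without sorted GL261 library 81, which had the 477, the difference was -0.35 ± 0.11 with an adjusted p of 0.019. In neurosphere-derived tumors Hspg2 was 0.37 ± 0.19 with all libraries (adjusted p = 0.12), 0.48 ± 0.14 without CT2A library 59 (adjusted p = 0.012) and 0.50 ± 0.19 with the transcript length offset (adjusted p = 0.046).

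The promoters of Lamb1 and Nid1, higher in CT2A, and of Lama5, lower, are shown as examples of members that moved in the same direction in all 3 comparisons. Each line gives the 250 bases before the start of the RefSeq gene in GRCm38.p6, read along the gene, with the GC box GGGCGG or its complement CCGCCC in capitals. Lamb1 lies on the plus strand at chr12:31265043-31265292, Nid1 on the plus strand at chr13:13437352-13437601 and Lama5 on the minus strand at chr2:180225860-180226109.
Lamb1: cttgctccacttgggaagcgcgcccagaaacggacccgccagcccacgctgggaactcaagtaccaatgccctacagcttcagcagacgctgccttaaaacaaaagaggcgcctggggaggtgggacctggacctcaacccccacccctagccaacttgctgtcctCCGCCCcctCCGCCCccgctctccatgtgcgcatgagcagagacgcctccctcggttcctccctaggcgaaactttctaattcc
Nid1: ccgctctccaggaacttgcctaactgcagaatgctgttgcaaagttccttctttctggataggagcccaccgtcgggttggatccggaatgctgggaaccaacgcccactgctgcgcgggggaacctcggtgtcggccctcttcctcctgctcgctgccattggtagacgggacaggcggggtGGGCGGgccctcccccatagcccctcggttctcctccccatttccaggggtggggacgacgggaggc
Lama5: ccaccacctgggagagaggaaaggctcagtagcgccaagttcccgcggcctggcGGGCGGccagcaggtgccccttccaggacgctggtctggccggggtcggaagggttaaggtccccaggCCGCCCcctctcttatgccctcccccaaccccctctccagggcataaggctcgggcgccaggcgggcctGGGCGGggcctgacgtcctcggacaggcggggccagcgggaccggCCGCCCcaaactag
The GC box occurred in 32.7% of 32851 mouse promoters and in 12 of the 27 promoter entries of the members (44.4%), which cover 23 members. Lamb1 had 2 matches, Nid1 had 1 and Lama5 had 4. Of other members called in all 3 comparisons, Itgb5 had 3, Itga4 had 1 and Lamb3 had 0. Members higher and members lower in CT2A both had matches. A TATA box (TATAAA, in 12.4% of all promoters), an AP-1 site (TGANTCA, 6.75%) and an E box (CACGTG, 6.02%), all searched on both strands, were found in none of the 27 entries. A match of letters is a description, and no match says only that the letters are not in this window.

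**Figure D3:**
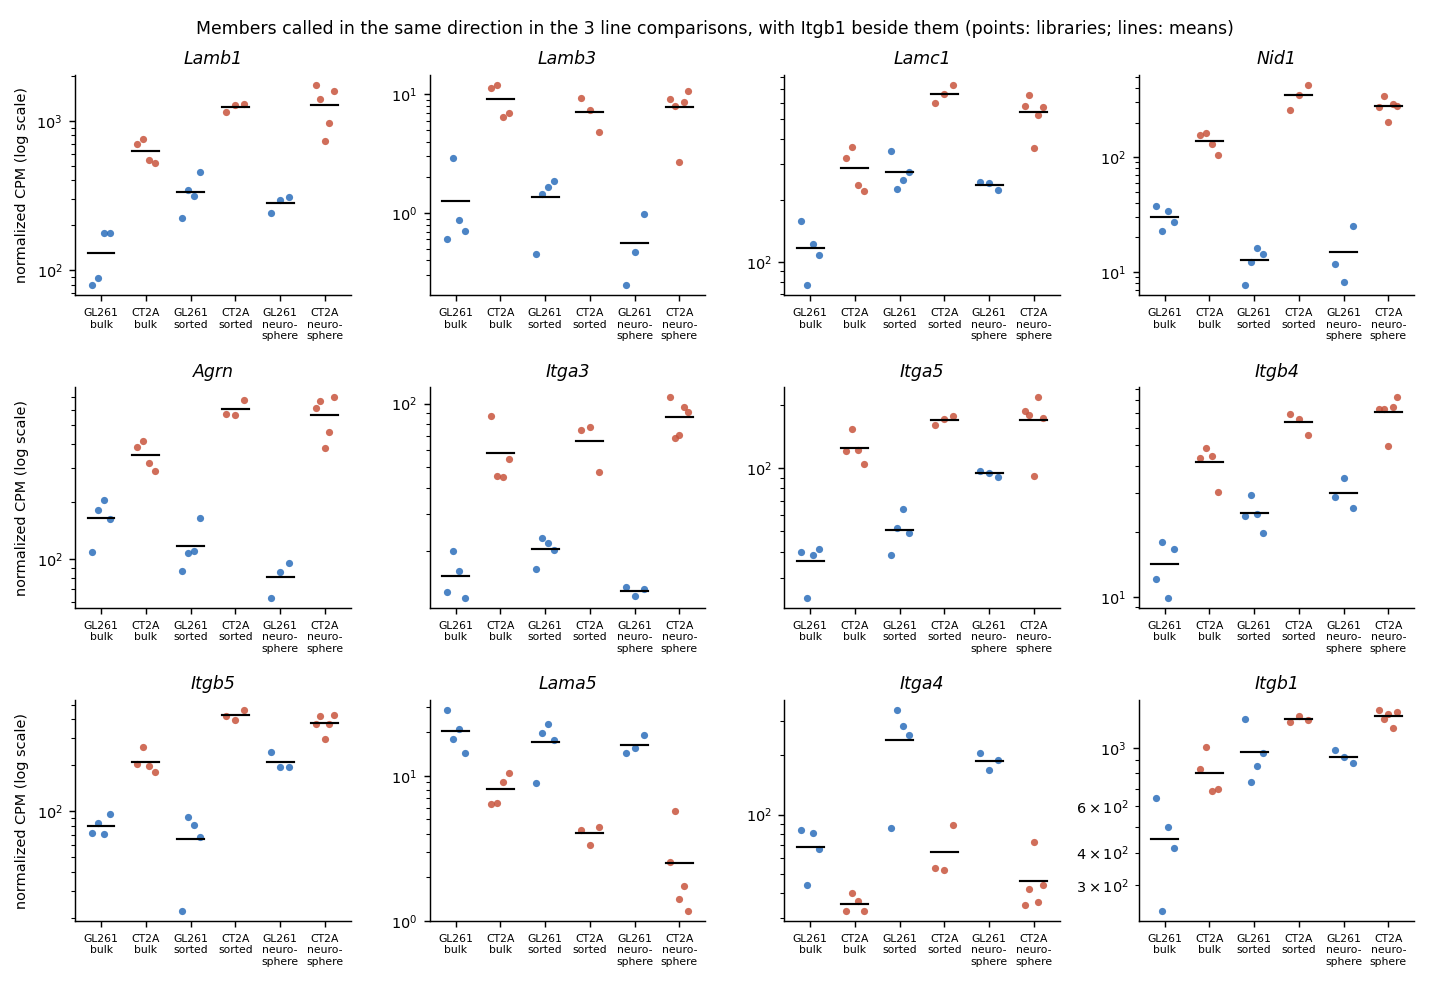
Normalized CPM (log axis) of the 11 members called in the same direction in all 3 comparisons (Lamb3 in sorted cells changes sign with a transcript length offset), and of Itgb1, in every library of the 6 groups (GL261 blue, CT2A red). Points are libraries and lines group means. Lamb1 lies at 79.1 to 177 CPM in GL261 and 524 to 760 CPM in CT2A bulk tumors, and Lama5 and Itga4 show the opposite order.

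Among the laminin-binding integrins, alpha 3 (Itga3, chr11:95044474-95076801) and beta 4 (Itgb4, chr11:115974709-116008412) were higher in CT2A in all 3 comparisons. Itga3 measured 12.8, 20.1, 16.2 and 12 CPM in GL261 bulk tumors and 87.7, 45.5, 44.9 and 54.5 in CT2A bulk tumors. In sorted cells it ranged from 16.4 to 23 CPM in GL261 and from 47.7 to 77.8 in CT2A, and in neurosphere-derived tumors it was 13.6, 12.3 and 13.2 CPM against 107, 68.6, 71.1, 95.9 and 91.3. The lines did not overlap in any of the 3, with log2 differences of 1.89 ± 0.26, 1.72 ± 0.21 and 2.73 ± 0.18. Itgb4, which pairs with alpha 6 in hemidesmosomes, measured 12.1, 17.9, 9.91 and 16.7 CPM in GL261 bulk against 43.6, 48.3, 44.3 and 30.5 in CT2A bulk tumors. It measured 23.6, 29.5, 24 and 19.8 CPM in sorted GL261 and 69.6, 65.7 and 55.7 in sorted CT2A cells. In neurosphere-derived tumors it measured 28.8, 35.3 and 25.7 CPM against 72.7, 73.3, 49.4, 74.3 and 82.5. Every CT2A library was above every GL261 library of its comparison. Its log2 differences were 1.52 ± 0.23, 1.4 ± 0.17 and 1.23 ± 0.18, and the bulk one had an adjusted p of 0.057 with an offset for transcript length. Itga6 (chr2:71745616-71858416), the partner of beta 4, was lower in CT2A neurosphere-derived tumors. It held 244, 216 and 223 CPM in GL261 and 133, 124, 85.8, 107 and 121 in CT2A, a difference of -1.0 ± 0.14 (adjusted p = 0.00019). With the transcript length offset this became 0.28, the bulk difference went from -0.48 ± 0.22 to 0.91 (adjusted p = 0.039) and the sorted one from 0.01 ± 0.19 to 1.2 (adjusted p = 0.00032), so no direction is given for Itga6.

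Beta 1 itself ranged from 240 to 643 CPM in GL261 and 685 to 1010 in CT2A bulk tumors, a difference of 0.77 ± 0.33 with an adjusted p of 0.14. It passed the test without GL261 library 405 (1.05 ± 0.30, adjusted p = 0.041) and with all 6 groups in 1 fit (0.84 ± 0.22, adjusted p = 0.0054). In neurosphere-derived tumors it was higher in CT2A by 0.51 ± 0.12 (adjusted p = 0.0037), with 874 to 978 CPM against 1190 to 1390, and with all 6 groups in 1 fit the adjusted p was 0.057. In sorted cells the difference of 0.43 ± 0.19 had an adjusted p of 0.083, and without library 81 it was 0.59 ± 0.12 with an adjusted p of 0.0019.

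The collagen receptors did not move as 1 group. Itga1 was 2.20 ± 0.42 higher in sorted CT2A cells, which held 273, 265 and 380 CPM against 23.6, 62.1, 78.2 and 105 in sorted GL261 cells. The lowest of these 4 was library 81, without which the difference was 1.91 ± 0.21. Itga10 was 1.76 ± 0.43 higher in sorted CT2A cells, from 1.03 to 4.08 CPM in GL261 to 8.74 to 11.3 in CT2A, and the call was lost with the transcript length offset (adjusted p = 0.069). Itga2 went the other way, with 11.7, 14.1, 15.2 and 27.2 CPM in sorted GL261 cells and 6.02, 8.62 and 9.67 in sorted CT2A cells. Its log2 difference was -1.06 ± 0.33 in sorted and -1.38 ± 0.47 in neurosphere-derived tumors, and both calls were lost when some single libraries were left out (adjusted p up to 0.10). Itga11 was tested in bulk tumors alone of the 3, where it was not called.

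Of the receptors for RGD-containing proteins, alpha 5 (Itga5, chr15:103344286-103366763), the fibronectin receptor chain, and beta 5 (Itgb5, chr16:33829665-33949338), a partner of alpha V, were higher in CT2A in all 3. Itga5 measured 40, 24, 38.7 and 41.1 CPM in GL261 bulk and 120, 154, 122 and 105 in CT2A bulk tumors. Sorted cells gave 38.6, 51.7, 63.7 and 48.9 CPM in GL261 and 161, 172 and 177 in CT2A. The lines lay apart in both, by 1.74 ± 0.24 and 1.75 ± 0.18, whereas in neurosphere-derived tumors 1 CT2A library (59, with 91.9 CPM) lay inside the GL261 range of 91 to 97.1, and the difference was 0.84 ± 0.23. Itgb5 measured 71.4, 83, 71.1 and 95.7 CPM in GL261 bulk and 204, 263, 198 and 181 in CT2A bulk tumors. Sorted GL261 cells gave 22.1, 91.2, 81.6 and 67.2 CPM and sorted CT2A cells 420, 398 and 459. The 22.1 was again library 81, and the sorted difference was 2.7 ± 0.41 with it and 2.41 ± 0.14 without it. Itgav held 161 to 282 CPM in GL261 and 199 to 273 in CT2A bulk tumors, and its log2 differences of -0.04 ± 0.24, -0.02 ± 0.17 and -0.20 ± 0.15 did not pass the test.

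Itga8 (chr2:12106632-12301922), a receptor for nephronectin, was 4.22 ± 0.31 higher in sorted CT2A cells (adjusted p = 1.6e-05), where it held 39.1, 31.8 and 62.5 CPM against 2.39, 3.2, 2.17 and 1.79 in GL261. Every CT2A library was above every GL261 library there, and in bulk tumors the ranges of 5.03 to 7.5 CPM in GL261 and 3.42 to 8.85 in CT2A overlapped. Itgb3 was 2.90 ± 0.64 higher in sorted CT2A cells, and 2.51 ± 0.29 without library 81, which held 0.114 CPM. Itgb8, the alpha V partner that activates TGF-beta, was lower in sorted CT2A cells: 68.1, 42.4, 57.1 and 69.1 CPM in GL261 against 16.8, 21.2 and 17.8, a difference of -1.66 ± 0.20 (adjusted p = 0.00022).

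Alpha 4 (Itga4, chr2:79255426-79333123), alpha 9 and beta 7 are chains of receptors for fibronectin, tenascin C, osteopontin and vascular adhesion molecules, and alpha 4 and beta 7 are abundant on leukocytes. Itga4 measured 83.3, 44, 81.1 and 67.1 CPM in GL261 bulk and 32.5, 40.3, 36.5 and 32.5 in CT2A bulk tumors. Sorted GL261 cells held 85.4, 338, 283 and 254 CPM and sorted CT2A cells 53.8, 52.5 and 88.8. Neurosphere-derived tumors held 205, 169 and 190 CPM in GL261 and 35, 42, 72.7, 36.3 and 44.1 in CT2A. The lines were apart in bulk and neurosphere-derived tumors, and in sorted cells they overlapped through GL261 library 81 (85.4 CPM). The log2 differences were -1.02 ± 0.24 (adjusted p = 0.017), -1.88 ± 0.45 (adjusted p = 0.0085) and -2.03 ± 0.23 (adjusted p = 3.7e-05), and without library 81 the sorted one was -2.17 ± 0.23. In bulk the adjusted p reached 0.053 when GL261 414, CT2A 39 or CT2A 48 was left out. Itga9 held 92, 64.6 and 80.7 CPM in GL261 and 12.6, 9.48, 15.3, 5.24 and 7.9 in CT2A neurosphere-derived tumors, a difference of -2.96 ± 0.29 (adjusted p = 1.5e-05). Itgb7 was -2.61 ± 0.50 there, from 29.4, 19.3 and 8.33 CPM to 2.04, 1.5, 6.63, 2.76 and 2.49. These tumors also differed in the 12 macrophage and microglia markers, all of which were called lower in CT2A there, at 4550 to 7340 CPM in GL261 against 539 to 2360 in CT2A. In sorted cells, where Itga4 was also lower in CT2A, none of the 12 was called. Library 81, with the lowest Itga4 of the sorted GL261 libraries, also had their lowest sum of these markers. It held 202 CPM, and the others held 609 to 1130. The part of these cells in the neurosphere-derived and sorted values was not tested.

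The transcripts behind 4 members are shown because the genes' summed levels hide which exons were read. Of the 32 members, 12 had at least 90% of their reads assigned to 1 transcript in every group, 28 had the same leading transcript in every group, and in 4 (Lama3, Lamb3, Itga10 and Itgb5) it differed. Lamb3, a beta chain of epithelial laminin 332, has an upstream first exon at chr1:193207725-193207877 in Lamb3-209, and 94268 bases downstream the first exons of Lamb3-201 (chr1:193301993-193302141) and Lamb3-202 (chr1:193302243-193302351). All 3 transcripts use the same start codon. Their last 15 bases before the shared coding exon are in capitals, followed by its first 15 bases.
Lamb3-209: GATATCACCCAGCTGgcgacccctctgagg
Lamb3-201: GGAGCTCAGGGTGAGgcgacccctctgagg
Lamb3-202: TAGTACGAAGGCAAGgcgacccctctgagg
Lamb3-201 and Lamb3-202 together held 87, 86.2, 53.4 and 94% of Lamb3 reads in CT2A bulk tumors, 72.2, 69.1 and 57.9% in sorted CT2A cells and 89.6 to 98.6% in CT2A neurosphere-derived tumors. In GL261 they held 0% in all libraries but bulk 414, which had 13.7%. Lamb3-209 held 52.9 to 87.6% in GL261 bulk tumors, 26.4 to 63.1% in sorted GL261 cells and 77.8 to 100% in GL261 neurosphere-derived tumors. In CT2A it held 4.61 to 42.8%, 27.8 to 42.1% and 0 to 8.5%, so the lines overlapped in sorted cells. The remaining reads were assigned to other Lamb3 transcripts. GL261 had few reads of this gene: 4 to 19.1 per sorted library and 2 to 8 per neurosphere library, so that 0 of the 50.5 summed reads in sorted cells allows a share of up to 5.94%, and 0 of 14 in neurosphere-derived tumors up to 21.4% (counting error only). Lamb3 was higher in CT2A by 2.86 ± 0.53, 2.38 ± 0.48 and 3.75 ± 0.59, and in sorted cells the transcript length offset turned this to -1.10, so no direction is given for sorted cells.

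Alpha 6 and alpha 3 each exist in an A form and a B form that differ in the cytoplasmic tail, through an alternative exon near the 3' end. The A exons of Itga6-201 (chr2:71853534-71853641, plus strand) and Itga3-201 (chr11:95046480-95046590, minus strand) are given up to the stop codon, which is in capitals.
Itga6-201: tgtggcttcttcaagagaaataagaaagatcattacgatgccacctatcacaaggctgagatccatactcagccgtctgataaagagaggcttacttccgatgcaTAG
Itga3-201: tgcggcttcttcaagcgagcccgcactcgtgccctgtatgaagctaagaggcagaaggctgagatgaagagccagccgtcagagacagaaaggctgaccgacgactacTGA
Of the reads on Itga6-201 and Itga6-202, the A form Itga6-201 took 79.3 to 90.2% in GL261 bulk and 60.5 to 74.3% in CT2A bulk tumors. It took 83.1 to 93% in GL261 and 51.4 to 74.9% in CT2A neurosphere-derived tumors. The lines did not overlap in either, and in sorted cells they did, with 56.2 to 100% in GL261 (the lowest in library 81) and 68.7 to 78.2% in CT2A. These shares leave out the reads on other Itga6 transcripts. Of all Itga6 reads, Itga6-201 held 35.1 to 57.4% across the groups. Itga3-201 took all reads of Itga3-201 and Itga3-203 in sorted cells of both lines and in CT2A neurosphere-derived tumors, and 51.2 to 100% in GL261 bulk tumors.

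Agrin has short alternative exons whose inclusion is known from neurons. Agrn-203 holds exons of 12, 24 and 33 bases that Agrn-202 lacks, on the minus strand at chr4:156169546-156169557, chr4:156168546-156168569 and chr4:156167777-156167809.
Exon of 12 bases: AAATCCCGCAAG
Exon of 24 bases: CGAGCTGACCAATGAGATCCCAGC
Exon of 33 bases: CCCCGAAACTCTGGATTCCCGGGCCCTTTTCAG
Agrn-203 took 2.36, 32, 12.4 and 11.6% of Agrn reads in GL261 bulk and 3.59, 1.33, 15 and 15.3% in CT2A bulk tumors. In the other GL261 groups it was 0% in every library, where 0 of 4336.1 summed reads allows up to 0.0692% in sorted cells (counting error only). That limit treats each Agrn read as able to tell Agrn-203 apart, which reads on exons shared with other transcripts cannot. Outside bulk tumors, reads were assigned to Agrn-203 in CT2A sorted library 69 (0.736%) and CT2A neurosphere library 57 (1.48%) alone. In the bulk libraries 9 neuron markers, all 9 with reads in every bulk library, summed to 425 to 3390 CPM in GL261 and 626 to 2800 in CT2A, against 158 to 574 in the other groups. The relation of the 2 was not tested. Itgb5-201 took 3.06 to 6.71% of the reads on Itgb5-201 and Itgb5-202 in GL261 bulk, 0 to 11.1% in CT2A bulk and 49.1 to 88% in the other groups. Read length, kit and sequencer differ between bulk and the other libraries and cannot be told apart from the sample type here.

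**Figure D4:**
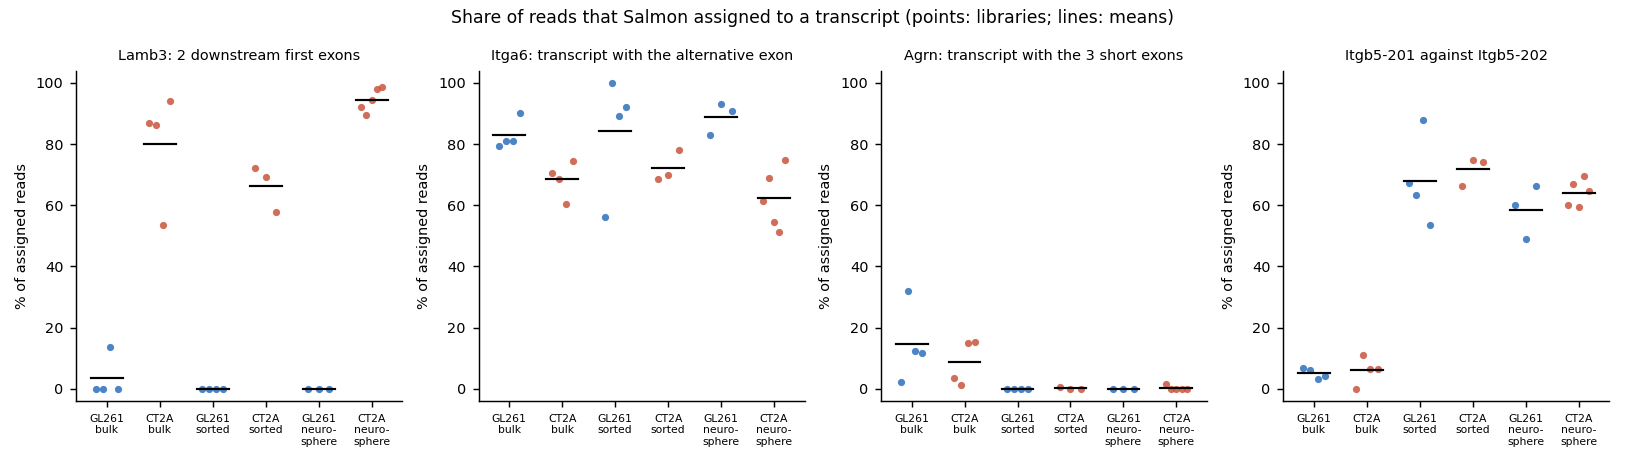
Share (percent) of reads that Salmon assigned to the named transcript or transcripts, for each library of the 6 groups (GL261 blue, CT2A red; lines are means). For Lamb3 and Agrn it is the share of all reads of the gene. For Itga6 and Itgb5 it is the share of the reads on the pair of transcripts named in the text. The Lamb3 share lies at 53.4 to 98.6% in CT2A and at 0 to 13.7% in GL261, and the Agrn-203 share is 1.33 to 32% in bulk tumors and at most 1.48% elsewhere.

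Whether the line difference itself depended on the sample type was tested with an interaction term. Comparing bulk with sorted tumors, the CT2A minus GL261 difference was smaller in bulk for 7 of 31 members and larger for 0, where 7.67% of all 15845 genes tested were called lower and 5.8% higher. Of all calls 43% were higher, and 53.8% with DESeq2 size factors, which moved the median of all genes by 0.12. The members were Nid1 (-2.77 ± 0.36), Nid2 (-1.25 ± 0.30), Agrn (-1.43 ± 0.32), Itga1 (-2.35 ± 0.59), Itga8 (-4.33 ± 0.46), Itgb3 (-2.34 ± 0.70) and Itgb5 (-1.47 ± 0.45). For Nid1, Nid2, Agrn, Itga1 and Itga8 the call held with each of the 15 libraries left out in turn. Itgb3 lost it in 9 of these and Itgb5 in 12, with adjusted p up to 0.11 and 0.096. Marker sums of other cells did not all go 1 way. Astrocyte markers summed to 841 to 3480 CPM in GL261 bulk against 258 to 680 in sorted cells, and in CT2A to 1140 to 2390 against 389 to 555. Pericyte and smooth muscle markers summed to 120 to 170 CPM in GL261 bulk against 362 to 505 in sorted cells, and in CT2A to 246 to 307 against 346 to 415. Cells of other types, sublines, number of cells implanted, sort, kit, read length and sequencer differ between bulk and sorted tumors, so these cannot be told apart.

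Bulk and sorted tumors were also compared within each line. Within CT2A, 18 of 31 members were lower and 6 higher in bulk than in sorted cells, where 23% of all genes were called lower and 26.9% higher. Within GL261, 9 of 32 were lower and 4 higher, against 14.4% lower and 20.1% higher. Nid1 was lower in bulk in CT2A (-1.33 ± 0.21) and higher in bulk in GL261 (1.29 ± 0.28). Itga8 went the same way, by -2.90 ± 0.35 in CT2A and 1.28 ± 0.33 in GL261. Lama4, Lamb1, Lamc1, Hspg2, Itga4, Itgav, Itgb1 and Itgb4 were lower in bulk in both lines. In GL261 the call of Itgb1 was lost in 4 of 8 fits with a library left out (adjusted p up to 0.074). That of Itgb4 was lost in 6 of 8 (adjusted p up to 0.13). Without GL261 bulk library 414, 7 members were called in GL261, and Itga8 was not among them (adjusted p = 0.057).

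Culture was compared within each line. In GL261, tumors from neurospheres had 4 of 29 members higher and 1 lower than tumors from adherent cells, where 7.58% of genes were called higher and 0.951% lower. Itga9 rose from 12.7, 31.2, 22.8 and 19.4 CPM to 92, 64.6 and 80.7, a difference of 1.94 ± 0.29 (adjusted p = 0.0095) that held with each library left out. Itgb5 (1.75 ± 0.41), Itga5 (0.96 ± 0.18) and Itga6 (0.80 ± 0.16) were higher and Itgb8 (-1.03 ± 0.19) lower, and each of these 4 lost its call in 3 to 6 of the 7 fits with a library left out. The number of members called was 8 without sorted library 81, 3 without sorted 82 or neurosphere 91, and 1 without sorted 84, neurosphere 89 or neurosphere 90. Beside this, 10 of 12 macrophage and microglia markers were higher in the neurosphere-derived tumors and the summed epithelium and choroid plexus markers were 378 to 449 CPM against 66.7 to 157. Of these 8 markers Krt14 was at 0 in the sorted GL261 libraries and Krt5 in the neurosphere ones, and their part in the integrin values was not tested. In CT2A, 1 of 27 members was higher and 0 lower, with 0.0533% of genes called higher and 0.114% lower: Nid2, from 13.8 to 16.8 CPM to 25.6 to 34.6, a difference of 0.96 ± 0.15 at an adjusted p of 0.049, which was lost in 6 of 8 fits with a library left out.

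The difference between lines changed with culture for 4 of 29 members. Itga3 had a higher CT2A minus GL261 difference in neurosphere-derived tumors (0.97 ± 0.27). Itga6 (-1.05 ± 0.24), Itga9 (-2.78 ± 0.51) and Itgb5 (-1.90 ± 0.44) had a lower one, sign included. Of all genes, 0.969% were called higher and 5.7% lower. For Itgb5 the lines were closer in neurosphere-derived tumors, at 0.84 against 2.7 in sorted cells. For Itga9 they were further apart, at -2.96 against -0.24. Itga6 was at -0.9997 against 0.0083, but at 0.28 against 1.2 with the transcript length offset. The Itga9 call held with each of 15 libraries left out, Itga6 and Itgb5 lost theirs in 3 and Itga3 in 12. Without CT2A sorted library 71, or GL261 neurosphere library 89 or 90, 1 member was called.

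**Figure D5:**
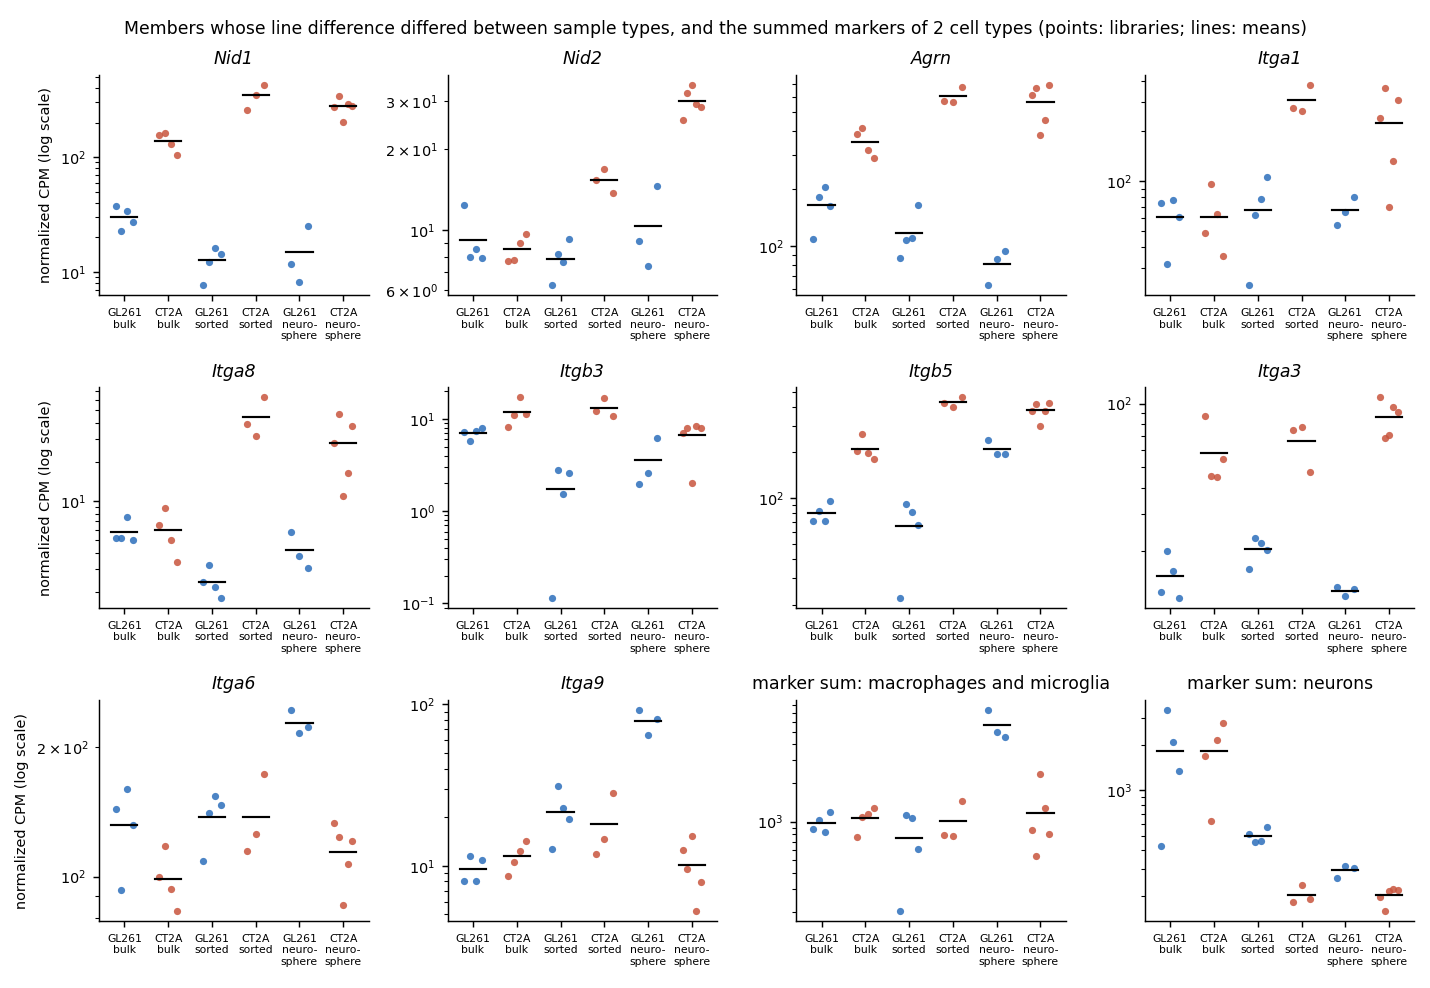
Normalized CPM (log axis) of the 10 members with a called interaction, and the summed CPM of 12 macrophage and microglia and 9 neuron markers, in each library (GL261 blue, CT2A red; lines are means). Itga8 overlaps between lines in bulk tumors and is apart in sorted cells, and Itga9 reaches 64.6 to 92 CPM in GL261 neurosphere-derived tumors, where the macrophage markers are at 4550 to 7340 CPM.

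The other genes of the pathway were taken from lists drawn up with the member list. Among 24 basement membrane partners, 6 of 24 tested were higher and 5 lower in CT2A bulk tumors, 9 and 7 of 20 in sorted cells and 9 and 6 of 21 in neurosphere-derived tumors. The share called over all genes was 23.4, 50.8 and 59.6% in these 3 comparisons. Type IV collagen alpha 1 (Col4a1), the chain that forms the collagen network with Col4a2, was 3.11 ± 0.30 higher in bulk, 5.89 ± 0.21 in sorted and 5.37 ± 0.36 in neurosphere-derived tumors. Peroxidasin (Pxdn), which crosslinks that network, was 2.91 ± 0.21 higher in bulk. Smoc1, a basement membrane protein that binds calcium, was -9.03 ± 0.36 lower in sorted cells. Of the integrin ligands outside laminins, 11 were higher and 1 lower of 18 in bulk, 10 and 4 of 16 in sorted and 8 and 3 of 16 in neurosphere-derived tumors, with periostin (Postn) 4.84 ± 0.33 higher in bulk and fibronectin (Fn1) not called there at -0.17 ± 0.41. Adaptors on the inside of the membrane gave 8 higher and 0 lower of 23 in bulk, 8 and 6 in sorted and 9 and 7 in neurosphere-derived tumors. Alpha-actinin 1 (Actn1), which links integrins to actin, was 2.18 ± 0.20 higher in bulk. Of the leukocyte and remaining chains, 2 of 12 were higher in bulk, 2 were higher and 1 lower of 11 in sorted, and 4 and 4 of 10 in neurosphere-derived tumors. There the alpha 7 chain (Itga7), another laminin receptor, was 3.05 ± 0.23 higher in CT2A, and the leukocyte chains Itgax (-3.31 ± 0.18) and Itgal (-3.12 ± 0.35) were lower beside the macrophage markers named above. Of 15 processing genes, 3 were higher and 2 lower in bulk, 5 and 3 in sorted and 3 and 4 in neurosphere-derived tumors, among them Mmp14, a membrane protease that cleaves laminin and collagen, 2.17 ± 0.25 higher in bulk. The median log2 difference of the integrin ligands was 1.70 in bulk, 1.72 in sorted and 0.53 in neurosphere-derived tumors, the largest shift of these lists beside medians of all genes near 0.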

How the data were processed

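RNA was sequenced from 23 tumors. The authors aligned reads to mm10/GRCm38 and quantified them with Salmon, STAR 2.7.7a and RSEM 1.3.3. The deposited Salmon values are estimated (expected) counts and TPM per transcript, and the deposited RSEM values are expected counts and TPM per gene for bulk and sorted libraries. Salmon estimated counts were summed per gene and rounded. edgeR 4.0.16 quasi-likelihood tests (R 4.3.3) used TMM factors and genes with a mean normalized count above 10, with Benjamini-Hochberg adjustment over all genes tested at 0.05. The standard error is the fold change over the root of F. Fold changes are CT2A relative to GL261, bulk relative to sorted, or neurosphere relative to adherent. DESeq2 1.42.0 and other scalings were alternatives. Scripts were tested on simulated data. The labels give no batch or pairing, and replicates are separate tumors, so p-values measure the spread between these tumors of 1 cell line. The called members ranking in the first 6 by p in either direction of a line comparison were given with library values in at least 1 comparison. Their other comparisons were in part given by range or log2 difference alone. Named pathway genes ranked in the first 2 of their list. Col4a1 in bulk and Fn1 were named after their values were seen. The members and lists were chosen with earlier results of these data known. Promoters are from RefSeq, GRCm38.p6.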

Additional observations from a re-analysis of the deposited data

Results flagged for a closer look

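In 120 sets of libraries of 1 gene in 1 group, 9 had a library far from the rest, where chance flags about 1 in 20 such sets. GL261 bulk library 412 held 2.9 CPM of Lamb3 and 24 CPM of Itga5. GL261 bulk library 405 held 12.4 CPM of Nid2, library 414 held 7.5 CPM of Itga8 and library 417 held 8.44 CPM of Itgb7. Sorted GL261 library 81 held 477 CPM of Hspg2. CT2A neurosphere library 59 held 72.7 CPM of Itga4, 2.01 CPM of Itgb3 and 6.63 CPM of Itgb7, and 2360 CPM of summed macrophage and microglia markers.

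The line difference itself differed between sample types, by the interaction test, for 11 member and comparison pairs. Between bulk and sorted tumors these were Nid1 (-2.77), Nid2 (-1.25), Agrn (-1.43), Itga1 (-2.35), Itga8 (-4.33), Itgb3 (-2.34) and Itgb5 (-1.47), on the log2 scale. Between neurosphere-derived and adherent-derived tumors they were Itga3 (0.97), Itga6 (-1.05), Itga9 (-2.78) and Itgb5 (-1.90). The cause was not tested.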

How the results depend on the processing

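With 8 or 9 other settings, the number of called members was 10 to 12 in bulk (11 as reported), 17 to 20 in sorted (19) and 22 to 25 in neurosphere-derived tumors (24), and with single libraries left out 9 to 13, 18 to 22 and 23 to 26. Leaving libraries out gave 1 to 8 members for GL261 culture (5 as reported), 0 to 1 for CT2A culture (1), 7 to 14 for bulk against sorted in GL261 (13), 19 to 26 in CT2A (24), 5 to 7 for the bulk interaction (7) and 1 to 6 for the culture interaction (4). The transcript length offset left 0 members for CT2A culture and reversed Itga6 in bulk (0.91) and neurosphere-derived tumors (0.28) and Lamb3 in sorted cells (-1.10). DESeq2 size factors moved the median of all genes in the bulk interaction by 0.12, and the share of calls that were higher from 43 to 53.8%. TMM over all genes, chosen after seeing the data, changed no line call of a member, and moved the higher share of CT2A culture calls from 31.8 to 43.2%. No paired analysis was possible because the groups share no replicate numbers. GL261 libraries held few Lamb3 reads, which limits its shares.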
